A study of Rattus norvegicus with 4 samples.

Results

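Olig1, Nkx6-2, Znf488, Sirt2, Fa2h, Klk6 and Lpar1 are 7 genes of the oligodendrocyte lineage that are neither membrane nor structural proteins of myelin. They were taken by symbol from the table of transcripts deposited for rat hippocampus, which lists 14 transcripts of these 7 genes among 830 transcripts in all, and 474 genes are named there by rows with a single gene. The table holds only transcripts that the authors had already called between the groups on the same 4 samples (p below 0.05 and a fold change above 1.5), so the members were preselected for a difference and no value given here is independent evidence of one. Each of the 4 samples pooled hippocampal punches of 2 male Wistar rats. Fluoxetine, an inhibitor of serotonin reuptake, was given by gavage at 12 mg/kg per day from postnatal day (PND) 67 to 88 to the rats of 2 samples, and the rats of the other 2 samples received the vehicle, 1% methylcellulose, over the same days. All rats were unmodified animals of that strain, killed at PND 128, which was 40 days after the last dose. A pool hides the spread between its own rats, and 2 pools per group measure the spread between groups poorly.

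Oligodendrocytes wrap axons of the brain in myelin, a stack of lipid-rich membrane. Precursor cells become myelinating cells under transcription factors of the bHLH, homeobox, SOX and zinc finger families, and the mature cell then runs enzymes for the sphingolipids of the membrane, for remodelling of its cytoskeleton and for proteolysis at its surface. Lipid ligands such as lysophosphatidic acid reach these cells through G protein-coupled receptors. In a bulk sample fewer cells of a type cannot be told apart from less RNA per cell.

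Promoter sequences of the RefSeq annotation on GRCr8 were at hand for 5 of the 7 genes (Sirt2, Klk6, Nkx6-2, Znf488 and Fa2h). These windows run from 250 bases before to 50 bases after the annotated start. Those of 3 genes are printed, because Sirt2 ran differently across the samples from Klk6 and Nkx6-2. For Klk6 and Nkx6-2 sample 2 exceeded sample 1 with either treatment. For Sirt2 it did not after fluoxetine, and the vehicle samples were close, in an order that depended on the scaling. Each window was searched on both strands for the E-boxes CATATG and CAGCTG, the homeobox core TTAATT and the SOX core ACAAAG, and a match is in capitals.
Klk6, chr1:103415266-103415565, + strand: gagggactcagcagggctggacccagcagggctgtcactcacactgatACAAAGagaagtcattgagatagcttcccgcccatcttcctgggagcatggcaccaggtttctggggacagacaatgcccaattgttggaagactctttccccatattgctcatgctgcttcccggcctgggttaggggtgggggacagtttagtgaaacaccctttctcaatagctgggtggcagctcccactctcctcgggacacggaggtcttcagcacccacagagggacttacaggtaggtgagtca
Nkx6-2, chr1:203813073-203813372, − strand: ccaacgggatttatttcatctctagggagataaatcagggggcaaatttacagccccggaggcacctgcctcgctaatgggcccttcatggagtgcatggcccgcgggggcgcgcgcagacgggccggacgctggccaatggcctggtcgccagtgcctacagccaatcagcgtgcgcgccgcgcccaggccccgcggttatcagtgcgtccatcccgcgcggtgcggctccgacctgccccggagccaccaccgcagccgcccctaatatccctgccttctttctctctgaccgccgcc
Sirt2, chr1:93181222-93181521, + strand: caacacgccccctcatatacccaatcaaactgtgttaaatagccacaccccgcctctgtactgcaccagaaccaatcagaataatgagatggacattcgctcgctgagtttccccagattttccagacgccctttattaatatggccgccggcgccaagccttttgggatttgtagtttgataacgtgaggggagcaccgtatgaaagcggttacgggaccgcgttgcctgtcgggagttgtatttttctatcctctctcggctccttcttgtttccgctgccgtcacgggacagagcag
Over the 5 windows the only match to the 4 motifs was ACAAAG in the window of Klk6, beginning at base 49. Of 33469 windows of the same length in the annotation, 18.8% held ACAAAG, 15.1% CAGCTG, 12.4% TTAATT and 4.11% CATATG. The 5 windows differed in base composition. The G and C content was 74.3% for Fa2h, 66.7% for Nkx6-2, 63% for Znf488, 55.7% for Klk6 and 51.7% for Sirt2, against a median of 51.7% over all windows.

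All 7 genes had the higher mean in fluoxetine-exposed rats, and all 14 transcripts had a fitted log2 fold change above 0, as did 432 of the 830 transcripts (52%). The largest fold changes were those of Znf488 and Fa2h, at about the size of a doubling, and the smallest were those of Sirt2 and Olig1, the genes with the most reads. In edgeR's quasi-likelihood test, 0 of the 14 transcripts had an adjusted p below 0.05 (0 of 830 in the table, 0%) and 0 had an unadjusted p below 0.05, against 23.6% of the table, 5.9% in this direction and 17.7% in the other. DESeq2 also called 0 of the 14 at an unadjusted p below 0.05, against 1.2% of the table, 0% in this direction and 1.2% in the other. The unadjusted p of the members ran from 0.183 to 0.406 and the adjusted p from 0.249 to 0.431 (edgeR). With 2 samples a side, the smallest two-sided p that exact permutation allows is 0.33. The median log2 fold change of the 7 genes was 0.54. It was below the median of 1.10 over the transcripts with higher reads after fluoxetine. It was also below that of 0.78 over those of them with a mean of at least 20 normalized reads. Over all 830 transcripts the median was 0.49, but these were preselected in both directions, so that value is not a typical fold change.

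**Figure D1:**
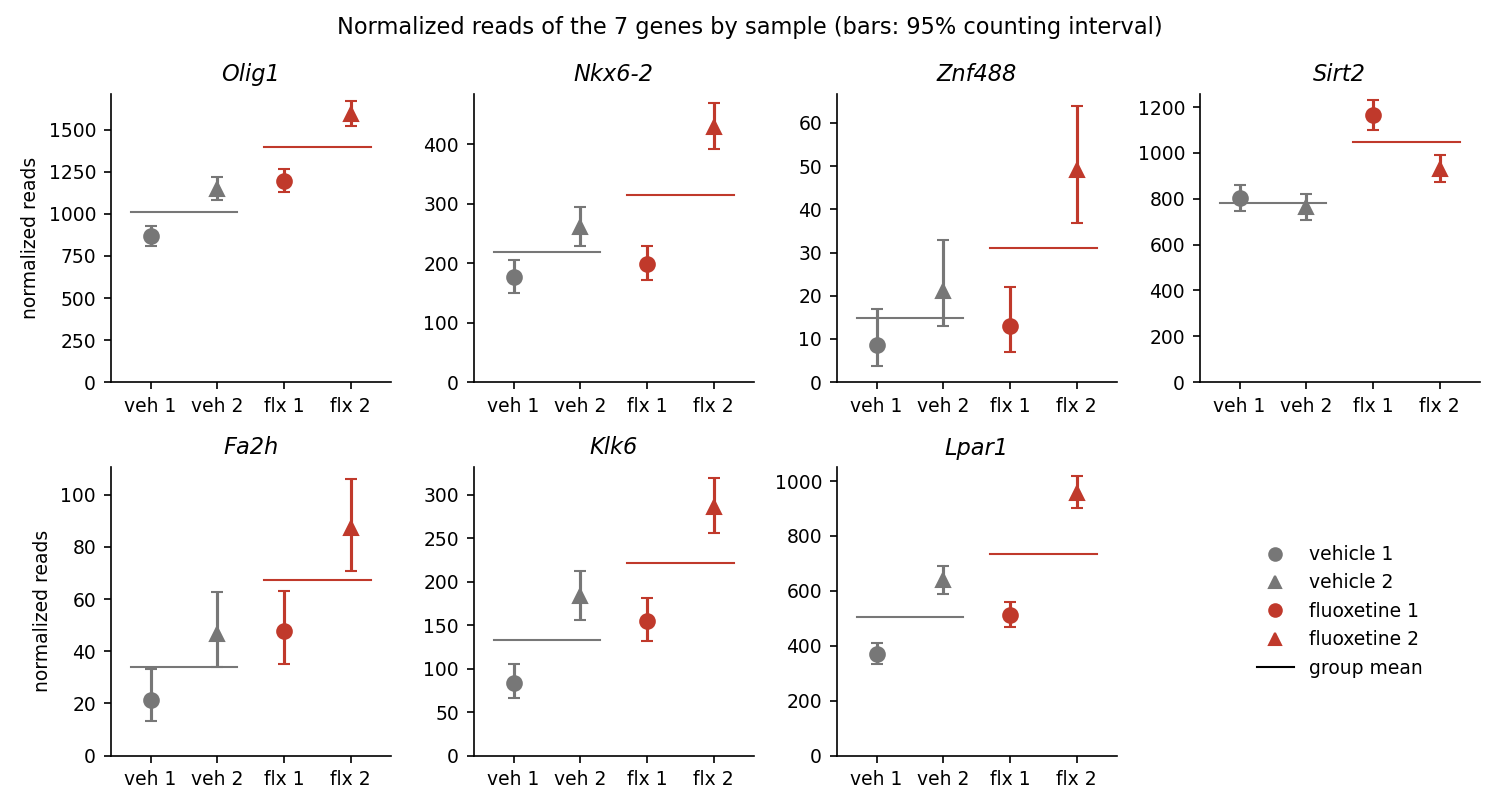
Normalized reads (linear axis from 0) of the 7 genes in the 4 samples, vehicle in grey and fluoxetine in red, circles for sample 1 and triangles for sample 2, with bars for the 95% counting interval and lines for group means (n = 2). The triangle stands above the circle in both groups for 6 of the 7 genes, and for Sirt2 below it, where the order of the vehicle samples turns on the deposited expression values.

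The transcription factors were Olig1, Nkx6-2 and Znf488. Olig1 is a bHLH factor needed for maturation of oligodendrocytes (gene ID 60394, rn4 chromosome 11, 31244279 to 31246421, + strand, 1 exon). Levels here are reads normalized by the TMM method over the listed transcripts. TMM assumes that most transcripts are unchanged, which preselected transcripts do not meet, so levels and fold changes depend on this scaling. For Olig1 the levels were 1197 (sample 1) and 1596 (sample 2) after fluoxetine, and 868 (sample 1) and 1150 (sample 2) after vehicle. Both fluoxetine samples thus stood above both vehicle samples, but the lower fluoxetine sample (95% counting interval 1130 to 1266) and the higher vehicle sample (1083 to 1221) were within counting error of each other. The group means were 1396 ± 282 and 1009 ± 199 (SD, n = 2). On the log2 scale the fitted difference was 0.47 ± 0.46 (standard error), with an adjusted p of 0.391 in edgeR. Leaving out fluoxetine sample 2 gave 0.12, fluoxetine sample 1 gave 0.66, vehicle sample 1 gave 0.28 and vehicle sample 2 gave 0.79. The second listed transcript of Olig1 differs from the first by 4 bases in length and gave the same values but for 1 read.

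Nkx6-2 encodes a homeobox repressor found in differentiating and mature oligodendrocytes (gene ID 309095, rn4 chromosome 1, 199397361 to 199398901, − strand, 3 exons). It had 199 and 429 normalized reads in the fluoxetine samples and 176 and 260 in the vehicle samples. Only fluoxetine sample 2 exceeded both vehicle samples, and the groups overlapped. The log2 fold change was 0.52 (standard error 0.58 and, in edgeR, adjusted p = 0.431), the least certain of the 7 by p. It became -0.27 without fluoxetine sample 2, 0.27 without vehicle sample 1, 0.97 without fluoxetine sample 1 and 0.98 without vehicle sample 2.

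Znf488, named Zfp488 in the current annotation, encodes a zinc finger regulator that promotes oligodendrocyte differentiation (gene ID 290571, rn4 chromosome 16, 9599510 to 9600526, − strand, 1 exon). It had few reads, 13 and 55 in the fluoxetine samples and 8 and 20 in the vehicle samples, and its 2 listed transcripts have the same position and the same counts. In normalized reads these were 12.9 and 49.0 against 8.60 and 21.2. Fluoxetine sample 1 lay between the vehicle samples, so that the groups overlapped. The counting interval was 6.88 to 22.1 in fluoxetine sample 1 and 36.9 to 63.8 in fluoxetine sample 2, and the difference between those 2 pools was therefore larger than counting error. The log2 fold change of 1.05 (standard error 0.86 and, in edgeR, adjusted p = 0.33) was -0.34 without fluoxetine sample 2, 0.55 without vehicle sample 1, 1.71 without fluoxetine sample 1 and 2.02 without vehicle sample 2. In the last of these 4 fits both transcripts had an unadjusted p of 0.0418 and an adjusted p of 0.471 in edgeR.

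The enzymes were Sirt2, Fa2h and Klk6. Sirt2 is an NAD-dependent deacetylase of tubulin and other proteins and is abundant in myelin (gene ID 361532, rn4 chromosome 1, 83893158 to 83895775, + strand). The listed transcript is a mouse Ensembl model of 736 bases and 6 exons, and the other transcripts of this gene were not analysed here. Its normalized reads were 1165 and 931 in the fluoxetine samples and 802 and 762 in the vehicle samples. Sirt2 was the gene of the 7 with the least spread within groups and the only member whose first fluoxetine sample exceeded the second. Its vehicle samples were within counting error of each other (745 to 861 and 708 to 820), and their order turned on the deposited expression values, with sample 2 the higher. The groups did not overlap, and the counting intervals of the nearest samples were apart as well (875 to 989 in fluoxetine sample 2, above that of vehicle sample 1). The log2 fold change was 0.42 (standard error 0.43 and, in edgeR, adjusted p = 0.405), and it lay between 0.25 (without fluoxetine sample 1) and 0.46 (without vehicle sample 1) when a sample was left out. In the current annotation the span of the gene overlaps that of LOC103689966, a protein-coding gene, so that reads in a shared stretch could belong to either.

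Fa2h encodes fatty acid 2-hydroxylase, which supplies the hydroxylated fatty acids of myelin galactolipids (gene ID 307855, rn4 chromosome 19, 41270794 to 41272163, − strand). The listed transcript is a short model of 426 bases and 2 exons. It held 47.7 and 87.4 normalized reads in the fluoxetine samples and 21.5 and 46.7 in the vehicle samples. The groups did not overlap, by a margin of 1 normalized read and far inside the counting intervals of the neighbouring samples (35.2 to 63.2 in fluoxetine sample 1 and 34.0 to 62.7 in vehicle sample 2). The log2 fold change was 0.98 (standard error 0.63 and, in edgeR, adjusted p = 0.249), the lowest p among the members. Leaving out fluoxetine sample 2 gave 0.35, vehicle sample 1 gave 0.53 and vehicle sample 2 gave 1.78. With sample number as a block, its unadjusted p was 0.0382 and its adjusted p 0.179 (edgeR).

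Klk6 encodes a secreted serine protease of the kallikrein family that is made by oligodendrocytes (gene ID 29245, rn4 chromosome 1, + strand, 94254350 to 94261500 for the model with the most reads). It is listed with 5 overlapping models of 725 to 1289 bases, so that a read can count for several of them and they are not separate measurements. The model with the most reads had 155 and 286 normalized reads in the fluoxetine samples and 83.8 and 183 in the vehicle samples, and the groups overlapped. Across the 5 models the log2 fold change ran from 0.67 to 0.73. That of the model with the most reads was 0.73 (standard error 0.62 and, in edgeR, adjusted p = 0.344). It was 0.09 without fluoxetine sample 2, 0.27 without vehicle sample 1, 1.10 without fluoxetine sample 1 and 1.53 without vehicle sample 2.

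Lpar1, the receptor, binds lysophosphatidic acid and is expressed on myelinating oligodendrocytes (gene ID 116744, rn4 chromosome 5, 76449470 to 76571458, − strand, 4 exons). It had 514 and 958 normalized reads in the fluoxetine samples and 371 and 638 in the vehicle samples. Here too fluoxetine sample 1 lay between the vehicle samples. The log2 fold change was 0.54 (standard error 0.57 and, in edgeR, adjusted p = 0.411) for this transcript and 0.55 for the second listed one, which has 2 exons. It was -0.10 without fluoxetine sample 2, 0.21 without vehicle sample 1, 0.92 without fluoxetine sample 1 and 1.13 without vehicle sample 2.

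**Figure D2:**
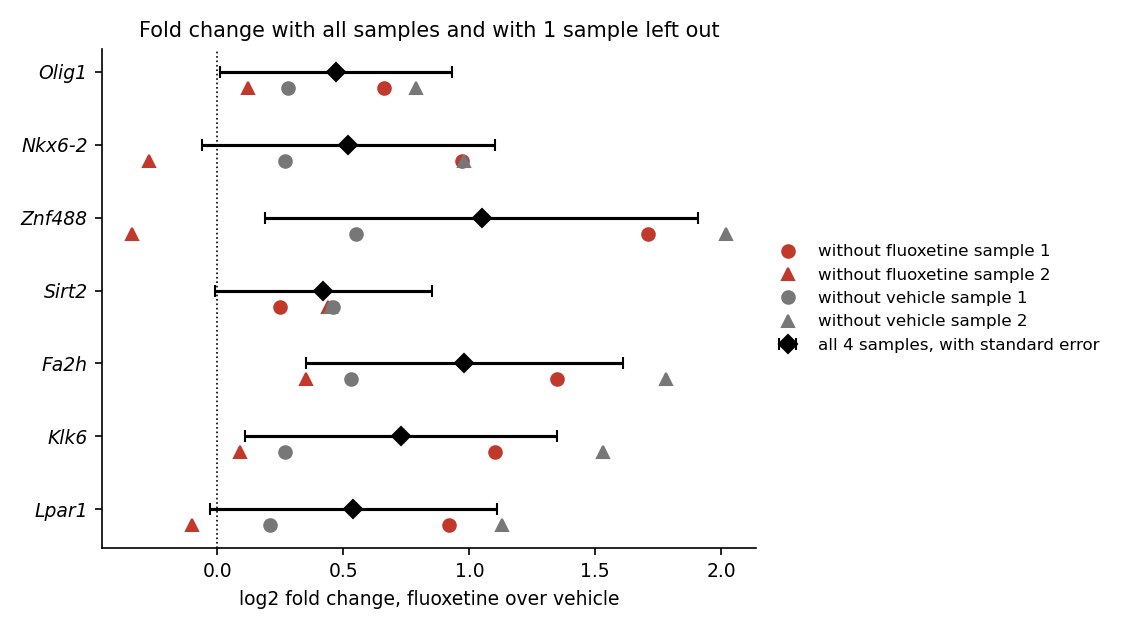
Log2 fold change of fluoxetine over vehicle for each gene with all 4 samples (black diamond, bar for the standard error) and with 1 sample left out (coloured symbols). Without fluoxetine sample 2 the value is below 0 for Nkx6-2, Znf488 and Lpar1, and the 5 values of Sirt2 lie closest together.

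Fluoxetine and vehicle samples were fully separated for 3 of the 7 genes (Olig1, Sirt2 and Fa2h), or 4 of the 14 transcripts, against 58.8% of all transcripts with higher reads after fluoxetine and 42.6% of those with a mean of at least 20 normalized reads. By transcript, the share of the members was below both shares of the table. Overlapping or repeated models of Klk6, Lpar1, Znf488 and Olig1 enter that count more than once, however. By gene the share was close to the 42.6%, so that separation does not set the members apart from the table. The count of genes also depended on the scaling. With the library totals that underlie the deposited expression values, with DESeq2's size factors, or with transcripts under a mean of 10 reads left out, Sirt2 alone had groups that did not overlap, and Olig1 and Fa2h overlapped. At the library totals 65.3% of the transcripts with higher reads after fluoxetine did not overlap. Relative to TMM, the library totals moved the median log2 fold change of all transcripts by 0.12 and that of the 7 genes to 0.68.

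For Nkx6-2, Znf488, Klk6 and Lpar1, the difference between pools of the same group was larger than that between groups, in either group, and for Fa2h it was larger in the vehicle group only. For Sirt2 and Olig1 it was smaller in both groups, with log2 differences between pools of -0.32 and -0.07 for Sirt2 and 0.42 and 0.41 for Olig1, beside 0.42 and 0.47 between groups. In the fluoxetine group, sample 2 exceeded sample 1 by 1.33-fold for Olig1, 1.83-fold for Fa2h, 1.85-fold for Klk6, 1.86-fold for Lpar1, 2.16-fold for Nkx6-2 and 3.80-fold for Znf488. In the vehicle group, sample 2 exceeded sample 1 by 1.32-fold for Olig1, 1.48-fold for Nkx6-2, 1.72-fold for Lpar1, 2.17-fold for Fa2h, 2.18-fold for Klk6 and 2.47-fold for Znf488. Sirt2 was the exception in the fluoxetine group, at 0.799-fold. In the vehicle group it was at 0.951-fold, which turned above 1 on the deposited expression values. The median over the 7 genes was a log2 difference of 0.88 between the fluoxetine samples and 0.78 between the vehicle samples, beside the 0.54 between the groups. Sample 2 exceeded sample 1 in both groups for 6 of the 7 genes. Among all 830 transcripts this held for 22%, and for 24.3% of those with higher reads after fluoxetine. The share was 37.1% for the fluoxetine group alone and 43.9% for the vehicle group alone. Between samples of the same number, fluoxetine was higher for all 7 genes at either number, from 1.13-fold (Nkx6-2) to 2.22-fold (Fa2h) for number 1 and from 1.22-fold (Sirt2) to 2.31-fold (Znf488) for number 2. Of all 830 transcripts 44.3% were higher after fluoxetine at both numbers, and of the 432 with higher reads after fluoxetine 85.2%. Nothing in the labels says that a number marks a shared cage, day or batch.

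Levels of different genes can be compared on the deposited normalized expression (NE), which is a read density per transcript length and data set size. Sirt2 was highest, with NE of 1.13 and 1.05 in the fluoxetine samples and 0.723 and 0.780 in the vehicle samples. Olig1 came next, with 0.399 and 0.618 against 0.269 and 0.404, and these did not reach the range of Sirt2. Nkx6-2, Lpar1, Klk6 and Fa2h followed close together, with means over the 4 samples of 0.160, 0.143, 0.125 and 0.0916. Their ranges over samples overlapped one another and that of Nkx6-2 overlapped that of Olig1, although within each of the 4 samples the order was the same. That order holds for the transcripts with the most reads. The second listed transcript of Lpar1 had 0.116 in fluoxetine sample 1, above Nkx6-2 at 0.112. Znf488 was lowest, with 0.00908 and 0.0400 against 0.00561 and 0.0157, its highest sample passing the lowest of Fa2h (0.0335). The mean of Sirt2 was 52.3 times that of Znf488. The short Fa2h and Sirt2 models cover only part of each gene, so their densities describe those stretches.

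**Figure D3:**
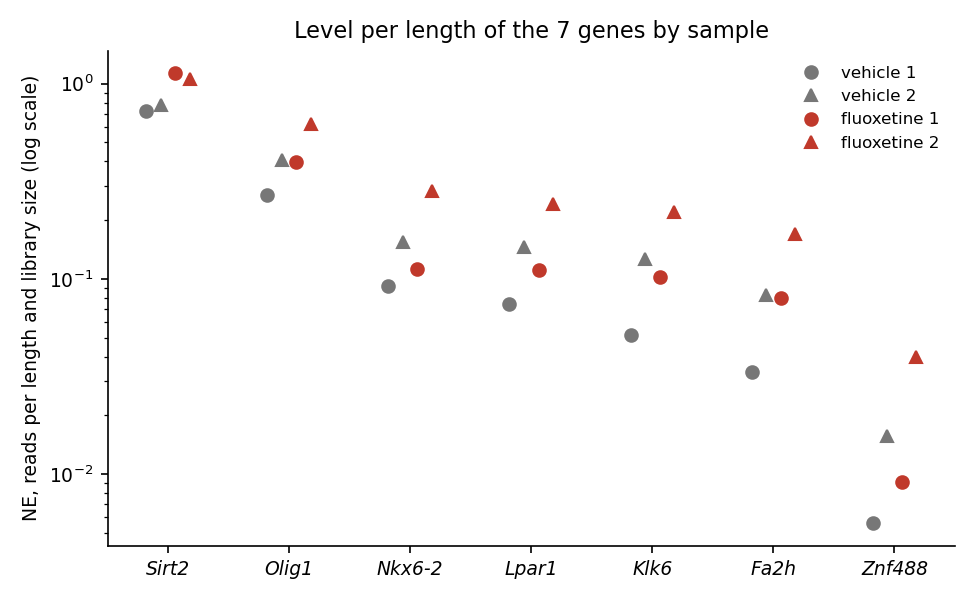
Deposited NE (reads per transcript length and library size, log scale) of the 7 genes in each sample, ordered by the mean over the 4 samples, vehicle in grey and fluoxetine in red. All 4 values of Sirt2 lie above all values of the other genes, and Nkx6-2, Lpar1, Klk6 and Fa2h share most of their range.

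Membrane and structural proteins of myelin were the nearest comparison, since they come from the same cells. Of 30 such genes fixed as a list, 8 were in the table, among them Cldn11, Mal, Opalin and Ermn. All 8 were higher after fluoxetine, with a median log2 fold change of 0.54, and 0 had an unadjusted p below 0.05 in edgeR. Of all 830 preselected transcripts, 52% were higher and 5.9% had such a p in that direction. Summed over the 8 genes, the normalized reads were 10694 and 21967 in the fluoxetine samples and 8411 and 14321 in the vehicle samples, the same order of samples as for Znf488, Nkx6-2, Klk6 and Lpar1. Mog did not follow that order. It had 56.6 and 53.5 normalized reads in the fluoxetine samples and 31.2 and 28.7 in the vehicle samples, with sample 1 the higher in both groups, as for Sirt2. Reads of the members were also expressed per 1000 reads of these 8 genes in the same sample, a ratio that needs no library scaling.

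On that ratio the 7 genes together stood at 308 and 197 in the fluoxetine samples and 277 and 214 in the vehicle samples. The group means were 252 ± 77.9 and 245 ± 44.8 (SD, n = 2), a ratio of 1.03 and a difference smaller than either SD. This sum weights each gene by its reads, with Olig1 at 112 and Sirt2 at 109 of the 308 in fluoxetine sample 1. It says little of the genes with few reads. The myelin gene with the most reads held from 36.2% (vehicle sample 2) to 47.4% (vehicle sample 1) of the denominator. Lpar1 was nearly level across all samples, with 48.0 and 43.6 against 44.1 and 44.6, so that its highest sample was 1.10 times its lowest. Nkx6-2 varied a little more, with 18.6 and 19.5 against 21.0 and 18.2, its highest sample being 1.15 times its lowest. For these 2 genes most of the spread seen in normalized reads was thus absent from the ratio.

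Sirt2 and Olig1 differed from that pattern. Sirt2 had 109 and 42.4 reads per 1000 in the fluoxetine samples and 95.3 and 53.2 in the vehicle samples, and Olig1 had 112 and 72.7 against 103 and 80.3. For both, sample 1 exceeded sample 2 on this ratio with either treatment, and their group means were close (ratios of 1.02 and 1.01). The denominator itself was larger in sample 2, at 10761 and 24637 myelin reads in the fluoxetine samples and 7827 and 13485 in the vehicle samples. In normalized reads Olig1 was higher in sample 2 with either treatment (1197 and 1596 after fluoxetine, 868 and 1150 after vehicle). Fa2h, with 4.46 and 3.98 against 2.56 and 3.26, and Klk6, with 14.5 and 13.0 against 9.97 and 12.8, had groups that did not overlap on this ratio, at 1.45 and 1.21 as fluoxetine over vehicle, whereas in normalized reads the groups of Klk6 overlapped. Over the table, 16% of transcripts had higher and 40.5% lower values after fluoxetine without overlap on this scale. The margin of Klk6 between 13.0 and 12.8 is small, and with 20 to 98 reads per sample Fa2h carries a wide counting error. Znf488 had 1.21 and 2.23 against 1.02 and 1.48, with overlap.

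**Figure D4:**
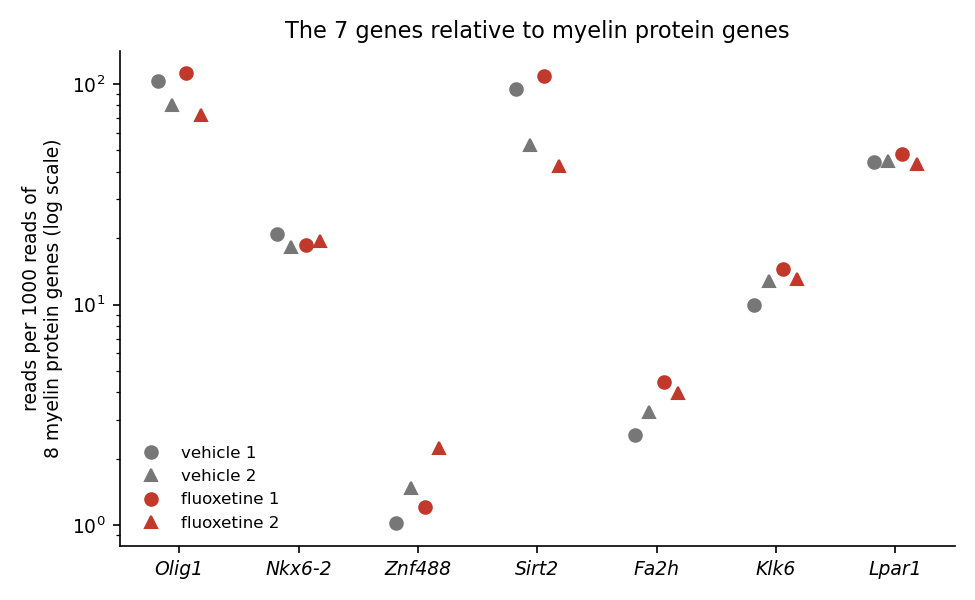
Reads of each of the 7 genes per 1000 reads of 8 myelin protein genes in the same sample (log scale), vehicle in grey and fluoxetine in red, circles for sample 1 and triangles for sample 2. Lpar1 and Nkx6-2 are nearly level over the 4 samples, and Sirt2 is higher in both circles (95.3 and 109) than in both triangles (53.2 and 42.4). The reads of the 8 myelin genes, the denominator, were higher in sample 2 of either group.

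Few other genes of the same pathways were in the table. Of 13 transcription factors of the lineage fixed as a list, the table held only the 3 members, so 0 others could be described. Of 17 receptors and enzymes of lysophosphatidic acid and sphingosine 1-phosphate signalling it held Lpar1, of 12 kallikreins, their inhibitors and receptors Klk6, and of 9 sirtuins and enzymes of tubulin acetylation Sirt2. Of 16 enzymes of myelin lipids it held Fa2h and Elovl7, an elongase of very long fatty acids. Elovl7 had 12.9 and 29.4 normalized reads in the fluoxetine samples and 14.0 and 3.19 in the vehicle samples, with overlap. A gene that is not in the table did not pass the authors' thresholds or was not measured there, and its level was not analysed here.

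Markers of other cells were looked up in the same way. The table held 0 of 12 markers each for astrocytes, microglia, vessel cells, and dentate gyrus with CA3, so the hippocampal label could not be checked on those. Of 12 markers of CA1 and cortical pyramidal neurons it held 6, and all 6 had the higher mean after fluoxetine, with a median log2 fold change of 0.70. In edgeR 0 of them were called at an unadjusted p below 0.05. Of all 830 transcripts, 52% were higher after fluoxetine and 5.9% were called in that direction. Their summed normalized reads were 5739 and 12260 in the fluoxetine samples and 5287 and 7180 in the vehicle samples, in the same order of samples as the sum over the myelin genes. Their part in the values of the 7 genes was not tested. Of 10 markers of oligodendrocyte precursors the table held Cspg4, a proteoglycan also made by pericytes, which was lower after fluoxetine at 3.98 and 0.892 normalized reads against 12.9 and 11.7 (adjusted p = 0.19 from edgeR). Of 10 interneuron markers it held Sst, at 3577 and 2138 against 1638 and 2290. Of 10 markers of choroid plexus and ependyma it held Kl and Clic6, both with few reads. Kl had 5.96 and 1.78 normalized reads in the fluoxetine samples and 0 in both vehicle samples, and Clic6 had 0 in both fluoxetine samples and 1.07 and 5.31 in the vehicle samples.

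The profile over the 4 samples most like the mean of the 7 genes was sought among 219 other genes with a mean of at least 20 normalized reads. Likeness was the root mean square difference of centred log2 values. The nearest were Tspan2, a tetraspanin of oligodendrocytes (0.0543), Igfbp4, a binding protein of insulin-like growth factors (0.0629), Ermn, a cytoskeletal protein of myelinating cells (0.0929), LOC100366118 (0.108) and Thpo, the gene of thrombopoietin (0.117). Tspan2 had 492 and 810 normalized reads in the fluoxetine samples and 325 and 495 in the vehicle samples. With 4 samples such a likeness is a description of these libraries.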

How the data were processed

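Polyadenylated RNA of 4 pooled hippocampal samples was sequenced as single reads of 36 bp. The authors aligned the reads to rn4 (build named in the submitters' processing notes) with a single mismatch allowed and dropped reads that matched at several positions. Per-transcript exon counts came from Genomatix tools, and the deposited counts are not normalized. The deposited NE signal scales those counts to transcript length and size of the data set. The library construction as described does not mark strand. The table also holds the authors' p-values, adjusted p-values, fold changes, and group means of NE, which were not used. Columns named treat and ctrl were taken as fluoxetine and methylcellulose samples by their number.

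Library totals behind NE were recovered as reads over length and NE, and were 14080347, 13513274, 14011869 and 12512597 (fluoxetine 1 and 2, vehicle 1 and 2). The summed counts of the listed transcripts came to 1.03 to 1.17% of these totals. That sum counts a read once for every listed transcript it falls on, so the share of distinct reads is lower. Counts were fitted over all 830 transcripts with edgeR 4.0.16 in R 4.3.3 (TMM, quasi-likelihood test, treatment alone, no filter, common dispersion 0.268), with Benjamini-Hochberg adjustment over the 830. Alternatives used DESeq2 1.42.0, limma 3.58.1 on log2(NE + 0.001) and log2(NE + 0.01), other scalings, a filter at a mean of 10 reads, repeated counts kept once, sample number as a block, and each sample left out. The scripts were tested on simulated data. For the edgeR fit these had a lower dispersion than the samples and larger planted fold changes than those of the members. They do not show how that fit performs at the spread of these samples. A gene stands at its listed transcript with the most reads, a read can count for several transcripts, and 263 transcripts share all 4 counts with another. Counting intervals are exact 95% Poisson intervals, and since reads carry no molecular identifiers they cover counting error only. Tallies and plots used Python 3.11.15, pandas 2.3.3, scipy 1.17.1 and matplotlib 3.10.9.

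All members are named with every listed transcript, with the members of the fixed gene lists that the table holds and the 5 genes of most similar profile. The members and lists were chosen with earlier results of these data known. Some listed genes are not named here. Promoters and current symbols came from RefSeq (GRCr8), a later build than rn4 that was used for no coordinate of a read.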

Additional observations from a re-analysis of the deposited data

How the results depend on the processing

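With 2 pools per group and a table of preselected transcripts, depth limits Znf488 and Fa2h most. The alternatives for single genes refit the samples on which the transcripts were preselected, so the sign was largely fixed in advance. For a gene with a single listed transcript, taking the transcript with the fewest reads changes nothing. In the 63 alternatives that kept all samples, all 63 log2 fold changes stayed above 0 and 0 had an adjusted p below 0.05 (from 0.179 to 0.466, both in edgeR). Of the 28 that left out a sample, 3 were below 0, all without fluoxetine sample 2, at -0.27 for Nkx6-2, -0.34 for Znf488 and -0.10 for Lpar1, where the highest values with a sample left out were 0.98, 2.02 and 1.13. The median of all transcripts itself moved by -1.05 (sample 1) and -0.87 (sample 2) when a fluoxetine pool was left out, by -0.18 and -0.26 when a vehicle pool was, and by 0.14 with the filter. That median is taken over transcripts preselected in both directions, so its moves do not measure a shift common to all fold changes. The median of the 7 genes was 0.97 without fluoxetine sample 1 and 0.09 without fluoxetine sample 2. The median of the 7 genes ran from 0.09 to 1.13 with a sample left out, and from 0.52 to 0.68 otherwise. The count of genes whose groups did not overlap was 1 in place of 3 with DESeq2's size factors, with the library totals, with the filter at a mean of 10 reads and on NE (at either pseudocount), and ran from 1 to 7 with a sample left out, where 7 rests on a lone sample of a group. The sum of the members per 1000 myelin reads, as a ratio of groups, was 1.02 to 1.03 otherwise and 0.804 to 1.25 with a sample left out. The lone sample of a group is assumed to vary like the others. Nothing but the number links samples of the same number, whose deviations had a correlation of 0.632 over 407 transcripts. With this number as a replicate block, 1 member transcript (Fa2h) in place of 0 had an unadjusted p below 0.05, 63 higher and 168 lower transcripts of the table had one, and the median of the 7 genes was 0.53. With a sample left out, 0 to 2 member transcripts were called at that level. Of the whole table, the transcripts with an unadjusted p below 0.05, 49 higher and 147 lower, became 30 and 74 with the filter, 0 and 10 with DESeq2's test, 93 and 158 in limma on NE at a pseudocount of 0.001, 92 and 148 at 0.01, 49 and 93 with DESeq2's size factors and 60 and 74 at the library totals. With a sample left out these counts ran from 17 to 68 higher and from 37 to 93 lower, and 0 to 1 transcripts had an adjusted p below 0.05 in edgeR. The cause of these shifts was not tested, except that fewer transcripts (507) enter the filtered fit.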
